A study of Homo sapiens with 6 samples.

Results

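The kinesin superfamily comprises motor proteins that use ATP to move along microtubules or to take them apart. The 40 genes described here encode kinesin heavy chains and were found by symbol among the 61552 genes of the deposited table. All 40 matched 1 row each. They were split by known role into 13 mitotic kinesins, 15 transport kinesins, 5 ciliary and hedgehog kinesins and 7 others. The libraries are poly(A) RNA-seq of SKOV3, a long-established line of human ovarian cancer cells. In one group, 3 libraries came from cells given 1 µM fenbendazole for 48 h, a veterinary benzimidazole whose target is tubulin. The control group of 3 libraries came from cells kept with the vehicle DMSO for the same time. The numbers used to name libraries are those of the labels: 10, 11 and 12 for DMSO, and 7, 8 and 9 for fenbendazole. Whether they came from separate cultures is not stated, so a p-value here reflects only how far these libraries spread, possibly for technical reasons.

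Mitotic kinesins build the bipolar spindle, carry and align chromosomes and complete cytokinesis, and their mRNAs are made mainly as cells approach division. Transport kinesins carry vesicles, mitochondria and other cargo toward microtubule ends in all phases of the cell cycle. Both kinds walk on or dismantle polymers of tubulin, the protein that fenbendazole binds. The design asks how the drug changes the transcriptome, and for this family the contrast of mitotic with transport motors was described.

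All 13 mitotic kinesin genes rose with fenbendazole, by 2.46-fold (KIF22) to 9.65-fold (KIF14), while 0 of 15 transport kinesin genes passed the test. KIF24, a centriolar kinesin, rose 2.56-fold, and KIF12 fell, with a level 3.56 times higher in DMSO. Genes were called with edgeR's quasi-likelihood test over 17363 tested genes at a Benjamini-Hochberg adjusted p under 0.05. Of all tested genes 3.11% were called higher and 0.921% lower. The median log2 fold change was 2.34 over the mitotic members, 0.07 over the transport members and -0.06 over all tested genes. KIF19, a depolymerising kinesin of cilia, had 0 counts in every library and was not tested, which allows at most 3 counts per library, or 0.132 to 0.223 CPM. In bulk RNA more cells of a type or phase and more RNA per cell cannot be told apart. The gene of the cycling-cell antigen Ki-67, MKI67, rose from 137 ± 36.0 to 764 ± 14.4 CPM (SD, n = 3 each), and its part in the kinesin changes was not tested.

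Libraries held 13170775 to 22128930 counts. All 8 markers fixed for an ovarian carcinoma line were found in every library, with ERBB2 at 7806 to 15881 CPM in DMSO and 4224 to 4632 CPM with fenbendazole. Of these 8, edgeR called 3 lower and 0 higher, against 0.921% and 3.11% of all tested genes. The 3 were ERBB2, CD24 and MUC1, with log2 fold changes of -1.29 ± 0.265, -1.22 ± 0.130 and -1.05 ± 0.198 (SE). Without the library DMSO 11 these were -0.89, -1.31 and -0.87, and PAX8 (-0.20) was called lower as well. In that fit 4 of the 8 were called lower and 0 higher, against 9.23% and 13.1% of all tested genes. Summed over 11 markers of leukocytes, fibroblasts and endothelium, the level was 61.1 to 109 CPM in DMSO and 60.2 to 64.3 CPM with fenbendazole, with 1 to 4 markers at 0 counts in a library and CD3E, a T cell marker, at 0 in all. COL1A1 made up most of that sum, with 34.8 to 80.4 CPM. DMSO 11 stood apart from the other libraries, with a mean correlation over tested genes of 0.944 against 0.971 to 0.976. The main results are therefore given with and without it.

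Promoters are shown here because the 13 mitotic members moved together. Many genes of G2 and mitosis are known to carry CCAAT boxes, bound by the factor NF-Y, close to a cell cycle homology region (CHR), bound by the MuvB complex. RefSeq promoter windows (GRCh38.p14) were matched by symbol for 32 of 40 members. The last 120 bases before the annotated start are printed 5′ to 3′ on the strand of the gene. Capitals mark motifs on either strand: the CCAAT box (read as ATTGG where it is inverted), the usual CHR form TTTGAA (read as TTCAAA where it is inverted), and, added after the sequences were seen, the variant TTTAAA or else the variant TTCGAA. The first 5 are mitotic members that hold both a CCAAT box and a CHR form, so they do not stand for all 13. In the 250 bases before the start KIF2C held none of the marked motifs, and CENPE and KIF15 had no CCAAT. KIF18B, KIF20B and KIFC1 had CCAAT but no CHR form, and KIF14 and KIF22 had CCAAT and a variant form. After the mitotic members come KIF24 and KIF12, the called genes outside that list, and KIF5B, the transport member of the highest level.
KIF4A, chrX:70289984-70290103, plus strand: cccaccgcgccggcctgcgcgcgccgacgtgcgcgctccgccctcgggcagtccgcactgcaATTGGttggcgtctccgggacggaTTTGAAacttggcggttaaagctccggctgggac
KIF11, chr10:92593010-92593129, plus strand: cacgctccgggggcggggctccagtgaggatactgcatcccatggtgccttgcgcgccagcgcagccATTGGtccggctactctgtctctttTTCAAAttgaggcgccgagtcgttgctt
KIF18A, chr11:28108157-28108276, minus strand: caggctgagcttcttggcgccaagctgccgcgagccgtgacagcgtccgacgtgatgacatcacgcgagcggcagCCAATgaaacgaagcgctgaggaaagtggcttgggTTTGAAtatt
KIF23, chr15:69414229-69414348, plus strand: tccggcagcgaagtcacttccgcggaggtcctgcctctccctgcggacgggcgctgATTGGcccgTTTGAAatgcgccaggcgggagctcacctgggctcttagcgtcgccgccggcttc
KIF20A, chr5:138178992-138179111, plus strand: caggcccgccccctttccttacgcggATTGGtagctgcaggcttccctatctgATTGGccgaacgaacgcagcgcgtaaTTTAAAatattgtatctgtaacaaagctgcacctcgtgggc
KIF24, chr9:34329269-34329388, minus strand: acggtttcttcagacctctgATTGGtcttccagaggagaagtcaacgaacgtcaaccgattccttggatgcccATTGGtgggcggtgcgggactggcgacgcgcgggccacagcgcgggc
KIF12, chr9:114099293-114099412, minus strand: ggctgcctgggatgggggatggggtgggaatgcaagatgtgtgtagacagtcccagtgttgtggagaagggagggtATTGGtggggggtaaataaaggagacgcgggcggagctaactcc
KIF5B, chr10:32056426-32056545, minus strand: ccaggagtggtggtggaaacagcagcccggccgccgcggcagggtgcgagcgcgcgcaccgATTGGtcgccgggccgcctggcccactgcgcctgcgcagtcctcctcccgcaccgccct

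In the 250 bases before the start, CCAAT on either strand was found in 10 of 14 windows of the 13 mitotic genes (71.4%) and in 5 of 16 windows of 11 transport genes (31.25%). Over all 35114 windows of the table the share was 32.0%. TTTGAA on either strand stood in 5 mitotic windows (35.7%), in 1 transport window (6.25%) and in 13.3% of all windows. That transport window was the one of KIF5B, where TTTGAA lay 134 bases before the start, outside the bases printed above. An E2F core on either strand (the form TTCCCGC or the form TTGGCGC, or else the form TTGCCGC or the form TTCGCGC) was present in 3 mitotic windows (21.4%), in 4 transport windows (25%) and in 10.9% of all. A CCAAT with TTTGAA at most 40 bases closer to the start, a pairing looked for after the sequences had been seen, was found in 4 mitotic windows, those of KIF4A, KIF11, KIF18A and KIF23. It was found in 0 transport windows and in 1.10% of all windows. The gaps were 19, 20, 30 and 4 bases. Over the full windows, which reach 50 bases past the start, 6 mitotic windows and 1.26% of all held the pairing, with KIF14 and KIF18B added. KIF24 had 3 CCAAT boxes and no TTTGAA, and KIF12 had 1 CCAAT in each of its 2 windows. A match describes letters in a window and is no evidence of binding, and the members were chosen with their changes known.

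Kinesins of the central spindle and cytokinesis are described first. KIF14 (ENSG00000118193, GRCh38 chromosome 1, 200551497 to 200620751), which works with citron kinase in cytokinesis, stood at 10.7, 4.74 and 15.3 CPM in DMSO 10, 11 and 12 and at 108, 79.1 and 107 CPM in fenbendazole 7, 8 and 9. CPM here are counts scaled to library size with edgeR's TMM factors. The lowest treated library was thus well above the highest control, and the log2 fold change was 3.27 ± 0.405 (SE; edgeR adjusted p = 0.00683). KIF20A, which brings the chromosomal passenger complex to the central spindle, was at 17.2, 14.6 and 18.9 CPM in DMSO and at 129, 130.0 and 120.1 CPM with the drug. The groups were far apart, and the log2 fold change of 2.90 ± 0.149 had the smallest adjusted p of the family, 0.000484 with edgeR. KIF20B, which acts late in cytokinesis, was at 18.6, 8.38 and 25.5 CPM and then at 113, 76.8 and 127 CPM. Its treated libraries spread more, with fenbendazole 8 lowest, and it rose by 2.61 ± 0.402 on the log2 scale.

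KIF23, the motor of centralspindlin, was at 39.1, 26.1 and 39.1 CPM in DMSO and at 188, 197 and 179.9 CPM with fenbendazole. It rose by 2.44 ± 0.186 on the log2 scale and had the highest level of the mitotic members per length, 46.6 ± 2.67 FPKM with the drug (fragments per kilobase of transcript and library size, SD, n = 3). KIF4A, a chromokinesin that limits microtubule growth in the central spindle, was at 24.4, 20.3 and 19.1 CPM and then at 125, 121 and 126 CPM. Libraries of each group lay close together, and its log2 fold change was 2.55 ± 0.144. KIF4B, an intronless copy of nearly the same sequence that could share its reads, had 0 counts in each DMSO library and a mean of 0.129 CPM with the drug.

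Motors that push spindle poles apart or focus them also rose. KIF11, known as Eg5, slides antiparallel microtubules apart, and KIF15 can take over that task. KIF11 was at 28.5, 16.2 and 32.5 CPM in DMSO and at 102, 97.6 and 104 CPM with fenbendazole. KIF15 was at 12.3, 4.21 and 11.5 CPM and then at 41.4, 43.1 and 51.8 CPM. In both genes DMSO 11 was the lowest library, and the log2 fold changes were 1.98 ± 0.252 and 2.29 ± 0.384. KIFC1, a minus-end motor that clusters extra centrosomes in cancer cells, was at 13.6, 11.3 and 9.22 CPM and then at 51.4, 53.8 and 53.0 CPM. Its treated libraries differed little from each other, and it rose by 2.21 ± 0.185.

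Chromosome-bound and kinetochore motors rose too. CENPE (ENSG00000138778, chromosome 4, 103105349 to 103198445), the kinetochore motor that brings chromosomes to the spindle equator, was at 24.9, 11.3 and 37.8 CPM in DMSO and at 202, 139 and 252 CPM with the drug. It had the second largest rise, 3.01 ± 0.440 on the log2 scale, and the widest treated spread among mitotic members. KIF18A, which damps chromosome movements, was at 14.8, 8.03 and 26.1 CPM and then at 82.6, 67.9 and 95.8 CPM, a log2 fold change of 2.34 ± 0.400. KIF18B, which shortens astral microtubules, was at 13.4, 22.7 and 11.98 CPM and then at 79.0, 68.7 and 66.7 CPM, a log2 fold change of 2.15 ± 0.260. Here DMSO 11 was the highest control, unlike in most mitotic members.

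KIF2C, also called MCAK, takes microtubules apart at kinetochores to correct attachments. It was at 34.4, 28.4 and 27.6 CPM in DMSO and at 98.8, 92.2 and 111 CPM with fenbendazole, a log2 fold change of 1.74 ± 0.151. KIF22, a chromokinesin that pushes chromosome arms outward, was at 30.3, 30.5 and 22.2 CPM and then at 66.3, 68.4 and 69.7 CPM. Its rise, 1.297 ± 0.166, was the smallest of the 13. The edgeR adjusted p of the mitotic members ran from 0.000484 (KIF20A) to 0.0211 (KIF18A), and in each of the 13 the lowest treated library was above the highest control. Over all tested genes such a gap occurred in 17.0% upward.

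With other settings all 13 mitotic members were called higher as well. The share of all genes called was then 3.15% higher and 0.893% lower with DESeq2's size factors, and 2.62% and 1.33% with upper-quartile scaling. It was 1.34% and 0.381% with no filter on low counts, and 4.33% and 1.38% with a filter at 1 CPM. With limma-voom it was 3.23% and 0.824%, with limma on log2(FPKM + 1) 2.66% and 0.962%, and on log2(FPKM + 0.1) 2.58% and 0.991%. At an adjusted p of 0.01, 9 of the 13 were called, against 1.11% of all genes higher and 0.0979% lower.

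**Figure D1:**
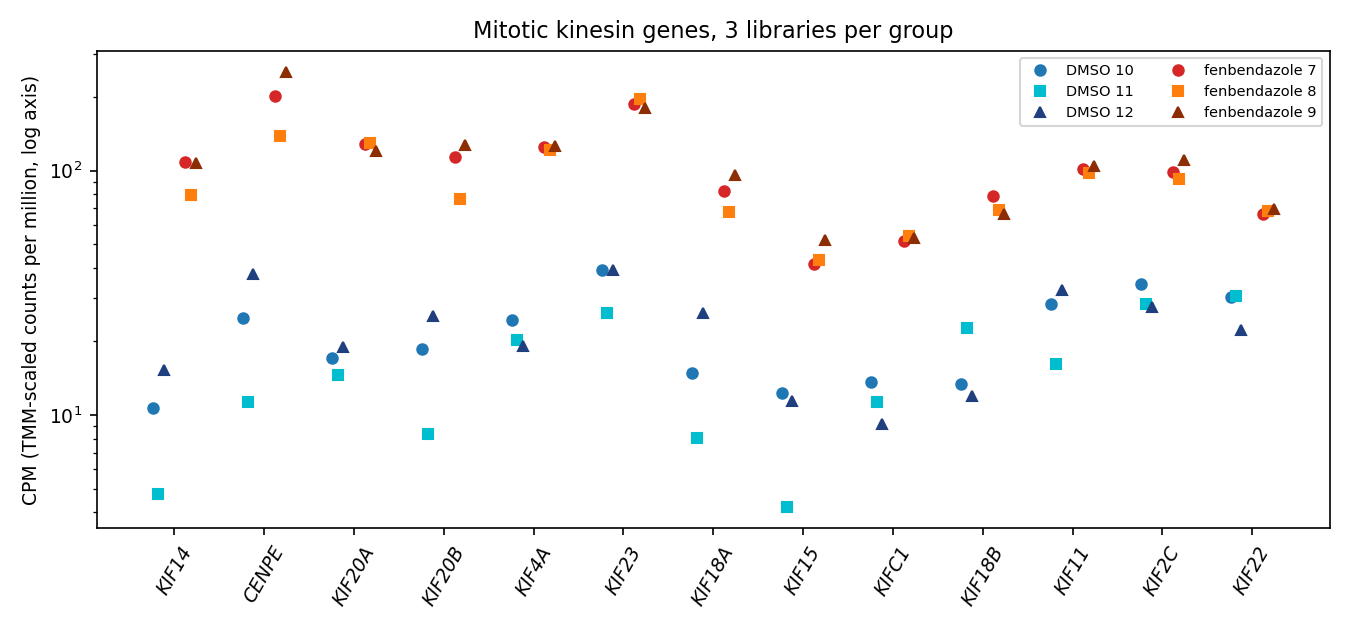
Level of each of the 13 mitotic kinesin genes in every library, in CPM on a log axis, ordered by fold change; each point is 1 library, blue shades DMSO and red shades fenbendazole. In every gene the 3 fenbendazole points lie above the 3 DMSO points, and DMSO 11 (light blue squares) lies far below the other controls for KIF14, KIF15 and CENPE but above them for KIF18B.

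Without DMSO 11 all 13 mitotic members again rose, by 1.38 (KIF22) to 2.94 (KIF14) on the log2 scale, where 13.1% of all tested genes were called higher. With the control that stood apart left out, that fit may understate how far controls spread. Of the 13, 7 passed the threshold in each fit that left out 1 library: KIF2C, KIF4A, KIF14, KIF18B, KIF20A, KIF23 and KIFC1. The number called was 7 without fenbendazole 7 (0.763% of all genes higher, 0.0439% lower), 10 without fenbendazole 8 (0.787% and 0.0437%) and 7 without fenbendazole 9 (0.793% and 0.0450%). It was 9 without DMSO 10 (1.40% and 0.169%) and 13 without DMSO 12 (2.32% and 0.553%). Log2 fold changes of the 13 stayed between 1.17 and 3.68 in these fits. The calls of KIF15 and KIF18A were lost without DMSO 10 and without each fenbendazole library (edgeR adjusted p from 0.0554 to 0.114). The call of KIF22 was lost without each fenbendazole library (adjusted p from 0.0563 to 0.0648). KIF20B and CENPE lost theirs without DMSO 10, fenbendazole 7 or fenbendazole 9 (0.0661 to 0.0894), and KIF11 without fenbendazole 7 or 9 (0.0501 and 0.0555).

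**Figure D2:**
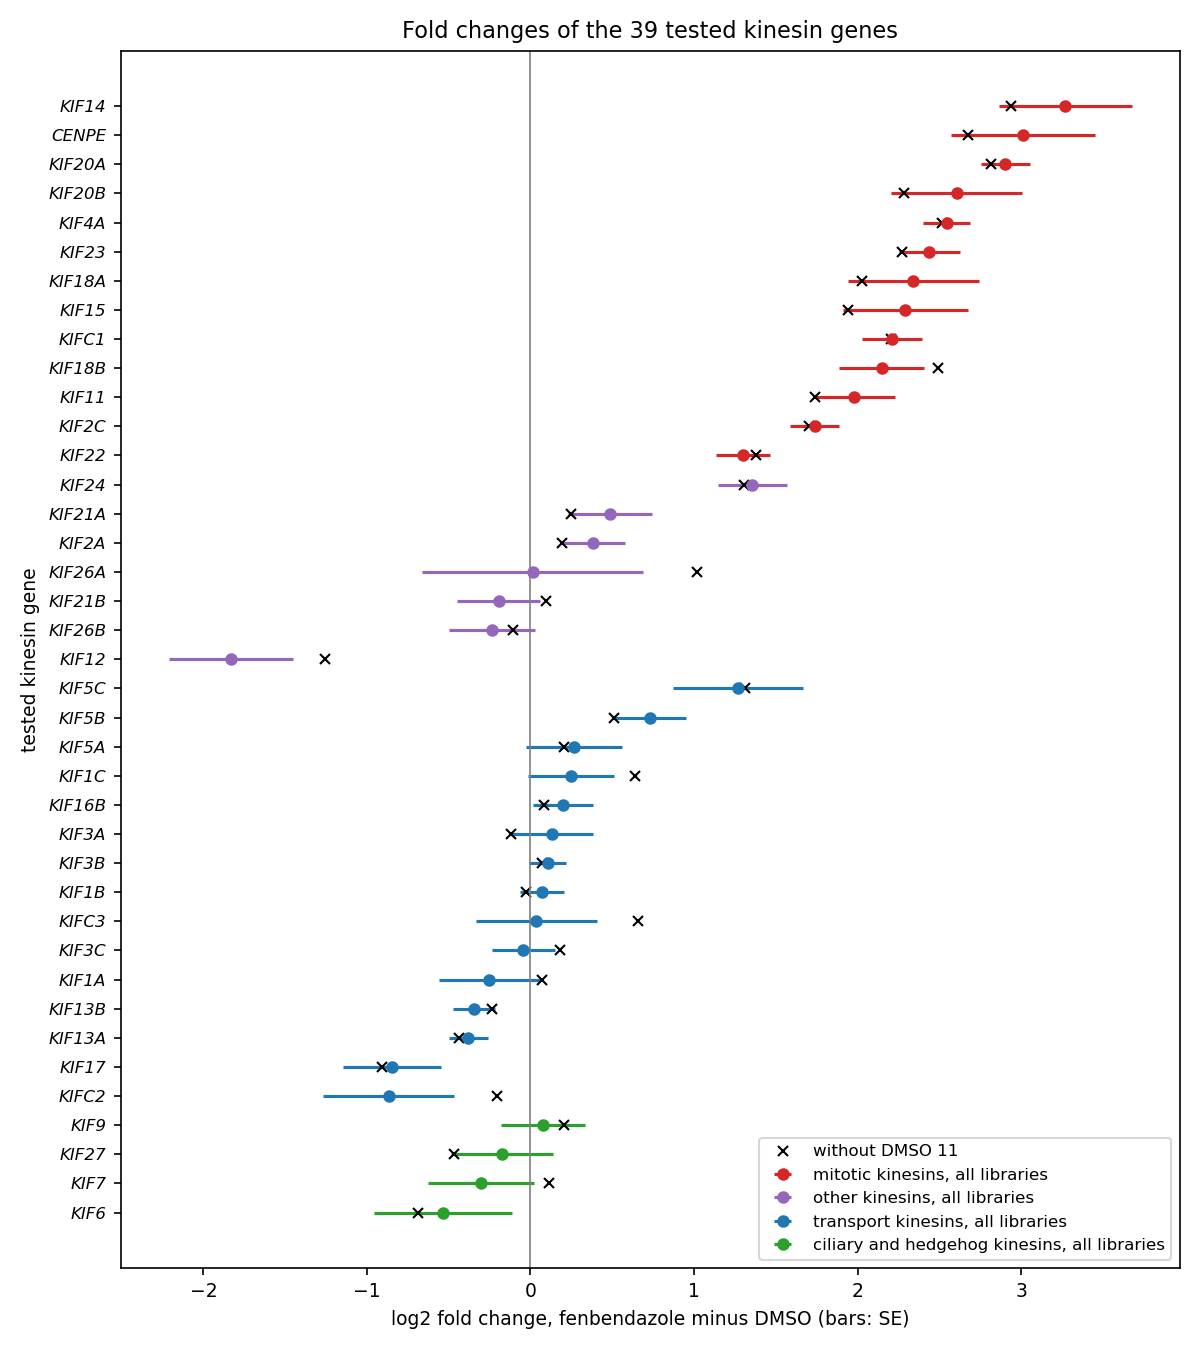
Log2 fold change (fenbendazole minus DMSO) of the 39 tested kinesin genes, grouped by role; dots with bars are estimates ± SE from all 6 libraries and crosses are estimates without DMSO 11. The 13 mitotic genes lie between 1.297 and 3.27, the 15 transport genes between -0.87 and 1.27, KIF24 stands at 1.36 and KIF12 at -1.83.

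Among 12 genes whose products bind or steer mitotic kinesins, 10 were called higher and 0 lower, against 3.11% and 0.921% of all tested genes. Their median log2 fold change was 2.13. TPX2, which recruits KIF11 and KIF15 to spindle microtubules, rose from 70.9 ± 15.4 to 457 ± 16.4 CPM. CIT, citron kinase and the partner of KIF14, rose 3.83-fold, and RACGAP1, which forms centralspindlin with KIF23, rose 4.28-fold. PRC1, which bundles central spindle microtubules and binds KIF4A, and GTSE1, which restrains KIF2C, shared an edgeR adjusted p of 0.00123. They rose 4.45-fold and 4.92-fold. The 2 partners not called were INCENP at 0.68 ± 0.157 (adjusted p = 0.0596) and MAPRE3 at -0.66 ± 0.275 (0.224). Without DMSO 11, INCENP was called higher (0.81, adjusted p = 7.65e-05) and MAPRE3 was at -0.28. The number of partners called higher was 11 in that fit (13.1% of all tested genes higher), with DESeq2 (6.66%) and with GC and length offsets (11.4%). It was 8 with limma on log2(FPKM + 1) (2.66%) and on log2(FPKM + 0.1) (2.58%). MAPRE1, which encodes the plus-end protein EB1 and is used by KIF18B and KIF2C, rose 1.47-fold (adjusted p = 0.0442), and KIFBP, which holds several kinesins inactive, 1.53-fold (0.0463).

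Transport kinesins gave no call in either direction. With edgeR 0 of 15 passed the threshold, and 2 members with higher and 3 with lower levels had an unadjusted p under 0.05, as had 10.8% and 10.5% of all tested genes. DESeq2 called 1 higher (KIF5B) and 1 lower (KIF13A), where 6.66% and 4.66% of all tested genes were called, and limma-voom and limma on FPKM called 0. By library, 3 members had all treated values above and 4 all treated values below the controls, against 17.0% and 15.5% of all tested genes. The higher counts are close to the shares over all genes, and the lower counts lie somewhat above them. With only 15 genes, that difference was not tested. Fold changes are smaller here than in the mitotic list, but an adjusted p above the threshold does not show that a level stayed the same.

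KIF5B, the ubiquitous heavy chain of kinesin-1, had the highest level per length of all 40 members, 55.0 ± 14.8 FPKM in DMSO and 86.9 ± 4.25 FPKM with fenbendazole. It was at 406, 239 and 438 CPM in DMSO and at 601, 559.7 and 635 CPM with the drug. The treated libraries were all above the controls, but the controls spread widely, and the log2 fold change was 0.73 ± 0.223 (edgeR adjusted p = 0.123). Without DMSO 11 it was 0.51 and was called (0.000107). KIF5C, a neuronal paralog, had 10 to 19 counts in DMSO and 21 to 40 with the drug, a log2 fold change of 1.27 ± 0.397 (0.128). KIF5A, another neuronal paralog, had 22 to 35 counts in all libraries and lies across DCTN2, whose counts were far higher, so its low counts cannot be assigned with certainty.

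Motors of the kinesin-3 family, which carry vesicles and endosomes, differed little. KIF1B had 180 ± 25.6 CPM in the DMSO group and 189 ± 4.61 CPM in the treated group, a log2 fold change of 0.07 ± 0.137. KIF13A and KIF13B, which carry endosomal and membrane cargo, had all treated libraries below the controls, with log2 fold changes of -0.38 ± 0.120 and -0.34 ± 0.130 (edgeR adjusted p = 0.130 and 0.189). KIF1C was at 0.25 ± 0.262, KIF16B, which carries early endosomes, at 0.20 ± 0.185, and KIF1A at -0.25 ± 0.307. The 2 heavy chains of heterotrimeric kinesin-2, KIF3A and KIF3B, were at 0.13 ± 0.254 and 0.11 ± 0.113, and KIF3C was at -0.04 ± 0.194. KIF17, a homodimeric kinesin-2, had 33 to 57 counts in DMSO and 19 to 29 with the drug (-0.85 ± 0.298, adjusted p = 0.164). The minus-end motors KIFC2 and KIFC3 were at -0.87 ± 0.400 and 0.04 ± 0.371. The value of KIFC2 rested on DMSO 11, since it was -0.20 without that library and -0.02 with GC and length offsets.

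**Figure D3:**
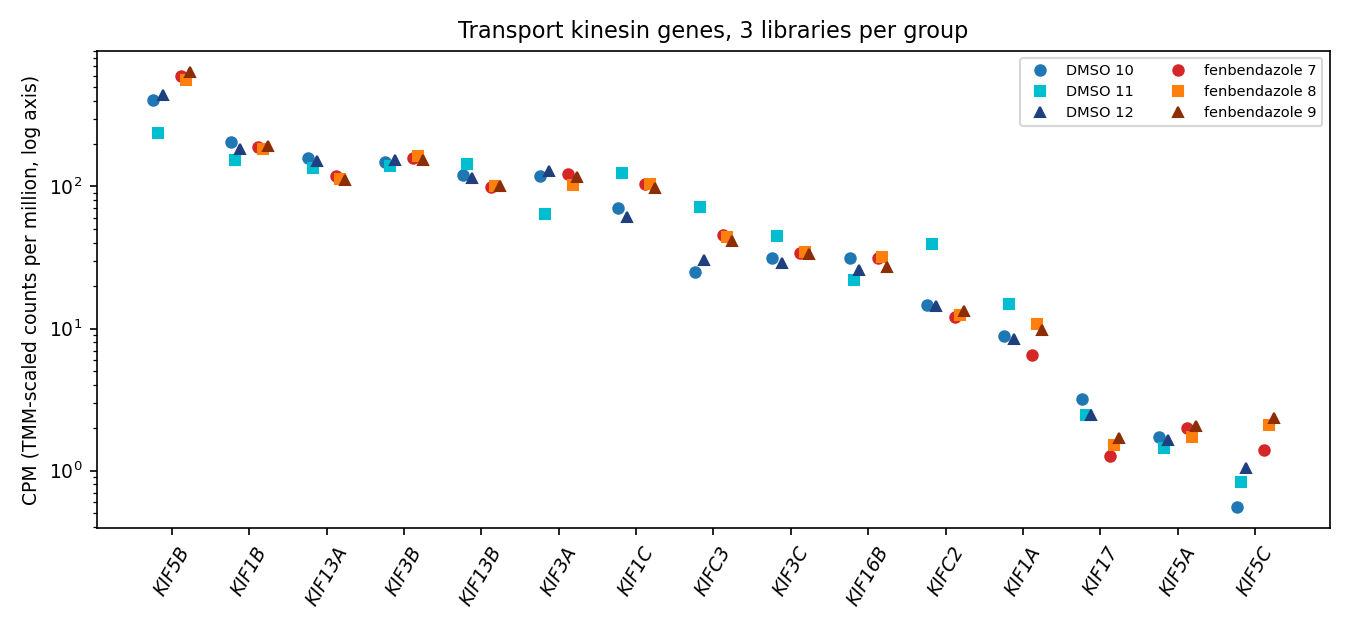
Level of each of the 15 transport kinesin genes in every library, in CPM on a log axis, ordered by the mean in DMSO; each point is 1 library, blue shades DMSO and red shades fenbendazole. The groups overlap for 8 genes. Treated points lie all above the controls for 3 genes and all below for 4, against 17.0% and 15.5% of all tested genes. KIF5B is highest, and DMSO 11 (light blue squares) lies apart from the other controls for KIFC2, KIFC3, KIF3A, KIF1C and KIF5B, among others.

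Without DMSO 11, 3 transport members were called higher (KIF5B, KIF1C at 0.64 and KIFC3 at 0.66) and 2 lower (KIF13A at -0.44 and KIF13B at -0.23), where 13.1% and 9.23% of all tested genes were called. None of the 5 was called in another fit that left out 1 library. The median of the list was 0.07 in that fit as well. The changes stayed small, and the largest rise called was below the smallest of the mitotic members in the same fit.

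Light chains and cargo adaptors of the transport motors gave 0 calls among 23 genes with edgeR, with 1 higher and 3 lower at an unadjusted p under 0.05, and a median log2 fold change of -0.14. DESeq2 called 0 higher and 2 lower, against 6.66% and 4.66% of all tested genes, and limma-voom and limma on FPKM called 0. Without DMSO 11, 1 was called higher and 3 lower, against 13.1% and 9.23% of all tested genes. With offsets for GC content and length 4 were called higher and 3 lower, against 11.4% and 9.57% of all tested genes. The counts at the unadjusted p are read against 10.8% and 10.5% of all tested genes. The smallest p belonged to KLC4, a kinesin-1 light chain, at -0.895 ± 0.270 (adjusted p = 0.120). Next came MAPK8IP3, the adaptor JIP3, at -1.04 ± 0.326 (0.130), FEZ1, a kinesin-1 adaptor, at 0.90 ± 0.366 (0.215), and KIFAP3, the accessory subunit of heterotrimeric kinesin-2, at -0.45 ± 0.188 (0.227). Among 26 tested genes of cytoplasmic dynein 1, the minus-end motor, and its dynactin complex and adaptors, edgeR called 2 higher and 0 lower. Of all tested genes 3.11% and 0.921% were called in those directions. The 2 called were SPDL1, which links dynein to kinetochores, at 2.56 ± 0.292, and NDE1, a mitotic dynein regulator, at 1.27 ± 0.160. The dynein adaptor HOOK2 (-0.68 ± 0.200, adjusted p = 0.115) and the light chain DYNLRB1 (0.34 ± 0.150, 0.248) were next by p and were not called. Calls of this list were 4 higher and 4 lower without DMSO 11, against 13.1% and 9.23% of all tested genes. They were 3 and 3 with GC and length offsets (11.4% and 9.57% of all tested genes) and 2 and 1 with DESeq2 (6.66% and 4.66%).

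Of 7 kinesins outside these roles, edgeR called 1 higher and 1 lower, against 3.11% and 0.921% of all tested genes. KIF24 (ENSG00000186638, chromosome 9, 34252380 to 34329268) is a depolymerising kinesin of the mother centriole that restrains cilium formation. It was at 24.0, 17.5 and 14.8 CPM in DMSO and at 44.4, 46.7 and 53.4 CPM with fenbendazole, so the groups did not overlap. Its log2 fold change was 1.36 ± 0.211 (edgeR adjusted p = 0.0151). The call was lost without each fenbendazole library (0.0795 to 0.103) and with limma on log2(FPKM + 1) (0.0590). KIF2A, a depolymerising kinesin of spindle poles and axons, had the highest level of this list per length and was at 145, 91.0 and 148 CPM and then at 161, 167 and 173 CPM. Its groups did not overlap, but its log2 fold change of 0.38 ± 0.195 was not called (0.299).

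KIF12 (ENSG00000136883, chromosome 9, 114086126 to 114099292), a kinesin of epithelial tissues linked to cholestatic liver disease, was the only member called lower. It was at 13.5, 34.6 and 15.0 CPM in DMSO and at 5.76, 5.92 and 6.07 CPM with fenbendazole. Treated libraries were nearly equal and below every control, and DMSO 11 was far above the other controls. The log2 fold change was -1.83 ± 0.380 (edgeR adjusted p = 0.0438), and without DMSO 11 it was -1.26 (0.000209). The call was lost without DMSO 10 (0.0586), without each fenbendazole library (0.189 to 0.204) and with limma-voom (0.0720). Of the rest, KIF21A and KIF21B, which regulate microtubule growth, were at 0.49 ± 0.258 and -0.20 ± 0.253. KIF26A and KIF26B, which lack ATPase activity, were at 0.01 ± 0.677 and -0.23 ± 0.262, with 7 to 61 counts of KIF26A and 51 to 105 of KIF26B. Without DMSO 11 KIF26A was at 1.02 (adjusted p = 0.261).

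Ciliary and hedgehog kinesins gave 0 calls among 4 tested with edgeR, against 3.11% of all tested genes higher and 0.921% lower. None had an unadjusted p under 0.05, as had 10.8% and 10.5% of all tested genes. DESeq2 (6.66% and 4.66% of all tested genes), limma-voom and limma on FPKM called 0 too. With only 4 genes, counts of 0 lie near these shares. KIF7, which organises the ciliary tip for hedgehog signalling, was at 12.5, 24.0 and 11.9 CPM in DMSO and at 15.0, 14.6 and 9.83 CPM with the drug. The groups overlapped, and its log2 fold change was -0.30 ± 0.325, and 0.11 without DMSO 11. KIF27 was at -0.17 ± 0.311. Without DMSO 11 it was called lower (-0.47, edgeR adjusted p = 0.00832), as were 9.23% of all tested genes. KIF9, which acts in motile cilia, was at 0.08 ± 0.254, and KIF6, with 11 to 23 counts, at -0.53 ± 0.423. Of kinesin genes outside the 40, KIF2B, KIF4B, KIF25 and KIF28P stood at means of at most 0.647 CPM in either group and were not tested.

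The makeup of the kinesin mRNA pool differed between groups. Summed FPKM of the 13 mitotic members was 68.5, 55.9 and 66.9 in DMSO 10, 11 and 12 and 292, 275 and 298 in fenbendazole 7, 8 and 9. That of the 15 transport members was 199 ± 4.69 in DMSO and 223 ± 5.39 with the drug (SD, n = 3 each). Mitotic members thus made up 20.2% ± 1.48 of the summed FPKM of the 40 genes in DMSO and 51.0% ± 0.565 with fenbendazole. The share of transport members was 63.3% ± 1.12 and 39.4% ± 0.376. KIF5B alone had more FPKM than any mitotic member in both groups.

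**Figure D4:**
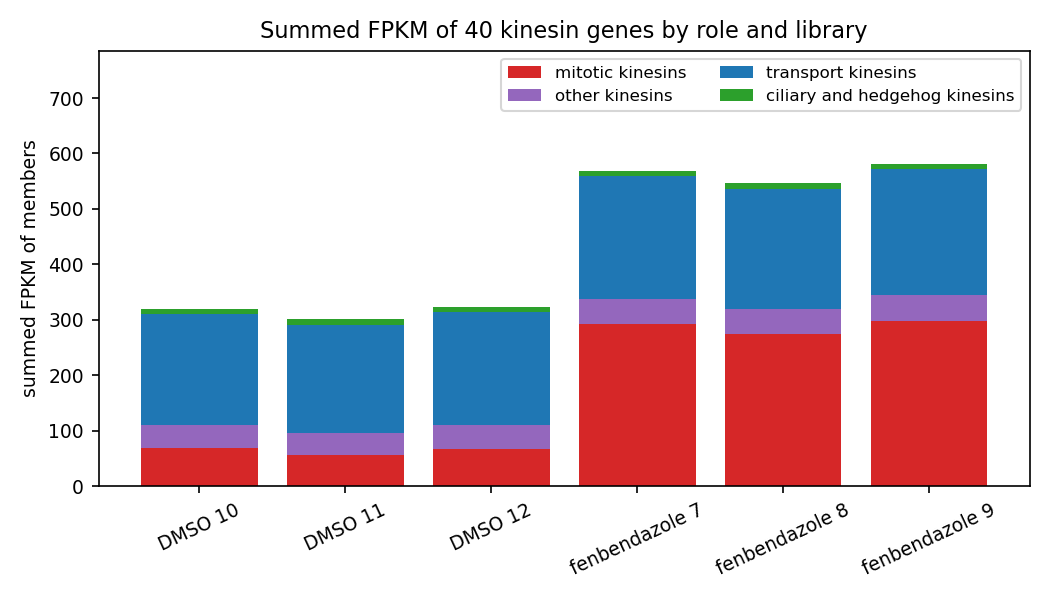
Deposited FPKM summed over the members of each role, stacked by library; the y axis is summed FPKM and starts at 0. The mitotic part is 55.9 to 68.5 in the 3 DMSO libraries and 275 to 298 in the 3 fenbendazole libraries, and the transport part is 194 to 203 and 217 to 228.

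DMSO 11 differed from DMSO 10 and 12 in step with the base composition of the members. Across the 39 tested members the log2 ratio of DMSO 11 to the mean of DMSO 10 and 12 ran from -1.43 (CENPE, 35.3% GC in its longest GENCODE v29 transcript) to 1.41 (KIFC2, 68.1% GC). Its correlation with GC content was r = 0.93 (Spearman's rho 0.92), given as a description, since all points share the same 3 libraries. Within the 13 mitotic members r was 0.92 and within the 15 transport members 0.85. Mitotic members had a median GC content of 42.3% and transport members of 51.4%. This goes with the low DMSO 11 values of KIF14, KIF15, KIF18A, KIF20B and CENPE and with its high values of KIF12, KIF18B and KIFC3. With offsets for GC content and transcript length in the edgeR fit, all 13 mitotic members rose, by 1.54 (KIF22) to 3.10 (KIF14), where 11.4% of all tested genes were called higher and 9.57% lower. In that fit KIF24 rose by 1.39 and KIF12 fell by 1.26 on the log2 scale. Of the transport members, KIF5B (0.52) and KIFC3 (0.67) were then called higher and KIF13A (-0.40) lower.

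**Figure D5:**
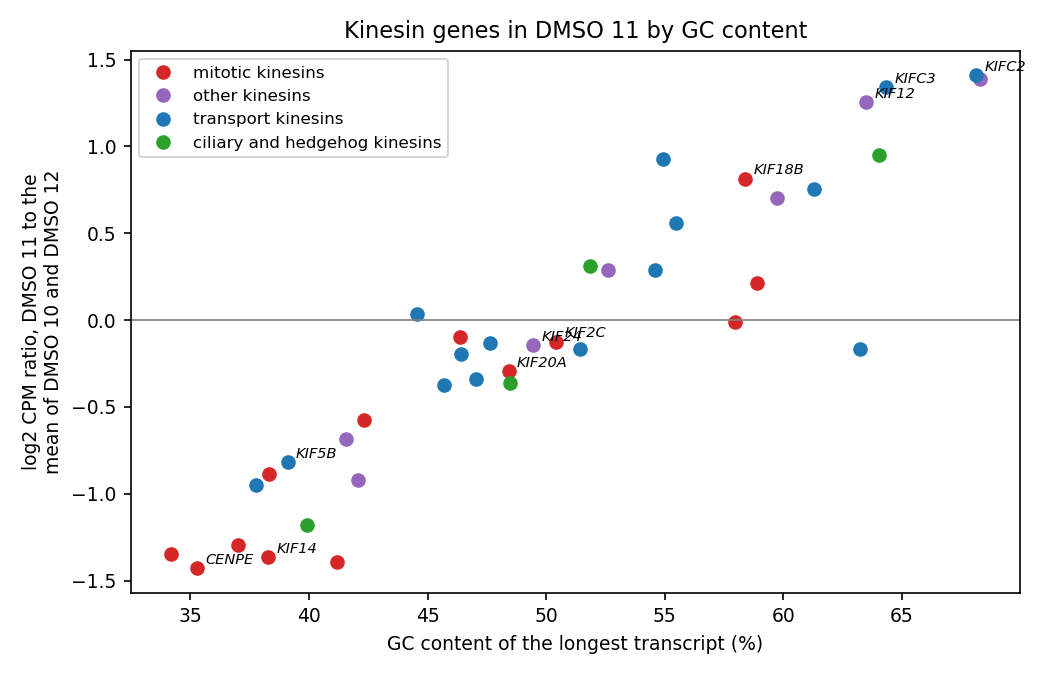
Log2 ratio of CPM in DMSO 11 to the mean of DMSO 10 and DMSO 12 (y axis) against the GC content of the longest transcript in percent (x axis), for the 39 tested kinesin genes, coloured by role. Points rise from CENPE at -1.43 and 35.3% GC to KIFC2 at 1.41 and 68.1% GC.

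Genes that overlap members on the genome could share reads with them, since the sources used here do not say whether strand was kept. An overlapping gene with at least 5% of the member's counts was found for 8 members. KIF20A lies across CDC23 and BRD8 on the opposite strand, with 93.5% and 116% of its counts. Their log2 fold changes were 0.35 ± 0.154 and 0.51 ± 0.146, against 2.90 for KIF20A. KIF24 lies across UBAP1 (0.03 ± 0.108), which had 651% of its counts. KIF4A lies across PDZD11 (-0.005 ± 0.167, 29.6% of its counts) and KIF15 across TMEM42 (-0.43 ± 0.297, 26.2%). These neighbours were not called, and each differed less than the member it overlaps. TMEM42 lies on the same strand as KIF15, so that pair could share reads even if strand was kept. KIF2A lies across DIMT1 (-0.22 ± 0.141), also not called. KIF9 lies across KLHL18 and KIF9-AS1, with 466% and 73.0% of its counts, so its own counts cannot be assigned with certainty. KIF7 lies across TICRR, a replication gene with 147% of its counts that rose by 1.31 ± 0.186, while KIF7 itself was not called. The counts of KIF7, KIF20A and KIF24 likewise cannot be assigned with certainty.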

How the data were processed

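The authors deposited whole-number read counts per gene, not normalised, and FPKM values for the same 6 libraries, per the file headers. The submitters' processing notes name CASAVA 1.8, HISAT2 2.1.0, StringTie 1.3.4b and edgeR with GRCh38. How reads were counted, whether by strand, and which annotation was used: not given in the sources used here. Counts were tested over the whole table with edgeR 4.0.16 (R 4.3.3): TMM scaling, edgeR's filter on low counts (17363 genes left) and the robust quasi-likelihood F test, with Benjamini-Hochberg adjusted p under 0.05. Of 40 members 39 passed the filter. Standard errors were derived from the F statistic. CPM are on the TMM scale. Replicate pairs differed by more than counting noise (chi-square per degree of freedom at least 4.86), so each library was counted as 1 sample. This does not tell separate cultures from repeat preparations.

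Alternatives were other scalings and filters, DESeq2 1.42.0, limma 3.58.1 (voom, and log2 FPKM with pseudocounts of 1 and 0.1 for the genes left by edgeR's filter), an adjusted p of 0.01, leaving out each library, and offsets for GC content and length from GENCODE v29 (97.8% of tested genes). Simulated counts with known changes served to test the scripts. The members and lists were chosen with earlier results of these data known. All 40 members are named, and in each partner list the 4 genes with the smallest p. PRC1, INCENP, MAPRE3, MAPRE1, KIFBP and the overlapping genes fall outside that rule and were chosen after their values were seen, as were the added motif forms and the pairing. Protein sequences were not used here. Python 3.11.15 with matplotlib 3.10.9 made the figures.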

Additional observations from a re-analysis of the deposited data

How the results depend on the processing

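No paired analysis was possible because library numbers 7 to 9 and 10 to 12 do not recur across groups. With other scalings and filters the counts of members called did not change by role, and no called member turned direction under any alternative run. The median log2 fold change of transport members was -0.002 with upper-quartile scaling, where that of all genes was -0.13, and it was above 0 in the other fits. Against 700 genes past the threshold, DESeq2 gave 1963, an adjusted p of 0.01 gave 210, and GC and length offsets 3558. DESeq2 called 1 transport member higher and 1 lower, and GC and length offsets 2 higher and 1 lower. KIF12 was not called with limma-voom (0 other kinesins lower) and neither KIF12 nor KIF24 with limma on log2(FPKM + 1) or log2(FPKM + 0.1), or at an adjusted p of 0.01 (0 other kinesins higher and 0 lower each). At 0.01, 9 mitotic members were called. Leaving out 1 library gave 147 to 3946 genes, 7 to 13 mitotic members higher, 0 to 3 transport members higher and 0 to 2 lower, 0 to 1 ciliary member lower, and 0 to 1 other kinesin in each direction. Fits without a library rest on 5 libraries. The cause of these differences was not tested. Low counts limit KIF5A, KIF5C, KIF6, KIF17, KIF19 and KIF26A.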
